A study of Arabidopsis thaliana with 14 samples.

Results

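The circular RNAs (circRNAs) of the nuclear genes for the light-harvesting antenna, for both photosystems and for plastocyanin were described. The 44 genes were named by gene identifier, and a circRNA was taken as theirs when the deposited list gave that identifier as its parent gene. In all, 35 of the 5861 circRNAs in the list (0.597%) belonged to 20 of the 44 genes, and they held 207 of its 54873 back-spliced reads (0.377%). The other 24 genes had no circRNA in the list.

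RNA of *Arabidopsis thaliana* Columbia-0 was sequenced in 14 libraries, each the only library of its kind and most of them made from several plants. One was a mixed library of whole plants from 7 stages across the lifespan. The 13 others were whole plants at growth stages 1.14, 3.90, 6.50 and 8.00, the organs roots, stems, leaves, flowers and siliques, and plants under drought (mannitol), salt (NaCl) or heat stress or without stress. Ribosomal RNA was removed from all of them and linear RNA was digested with RNase R, and no mutant or transgenic line was used. The stressed and unstressed plants were labelled as whole plants, while the study's sample table calls them aerial parts.

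The list of all samples gives each circRNA 1 number of reads and does not split it by library, so no condition was compared with another here. The mixed library also has a list of its own, with 1217 circRNAs and 8987 reads. For all 1217 of them the number in the list of all samples equalled the count in the mixed library, so reads that the other 13 libraries may hold for these circRNAs are not seen in it. Presence in the mixed library was therefore the only contrast between libraries that these lists give, and the study's supplementary values by library were not used here. By the study's methods, the mixed library was sequenced on another Illumina instrument and with shorter reads than the other 13.

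The light-harvesting complex (LHC) proteins bind chlorophyll and pass light energy to the reaction centres. The LHCB proteins form the antenna of photosystem II (PSII), which takes electrons from water, and the LHCA proteins form the antenna of photosystem I (PSI), which passes electrons on to ferredoxin. Plastocyanin is the copper protein that carries electrons to PSI. A circRNA of exons typically forms when a splice donor is joined to an acceptor that lies upstream of it. Introns can give circRNAs too. The reads that cross the junction tell a circRNA from the linear mRNA.

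To make the events concrete, junctions are shown of the circRNAs with the most reads in LHC, PSI and PSII. Those of the other well-read circRNAs of LHCA5 and LHCB5 follow the same form. The last is of an LHCB1 circRNA with 30 bases that also match a second gene. Each junction gives the last 30 bases of the circRNA in lower case and its first 30 bases in capitals. They run 5′ to 3′ on the listed strand and were read from the TAIR10 genome. The LHCA5 and LHCB5 junctions beyond the highest of each gene were chosen after their values were seen.
Ath_circ_FC0664: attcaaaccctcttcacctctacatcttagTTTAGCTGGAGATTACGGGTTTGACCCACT
Ath_circ_FC4825: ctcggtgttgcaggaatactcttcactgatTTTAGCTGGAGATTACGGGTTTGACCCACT
Ath_circ_FC0018: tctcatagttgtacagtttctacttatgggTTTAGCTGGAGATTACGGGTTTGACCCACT
Ath_circ_FC2587: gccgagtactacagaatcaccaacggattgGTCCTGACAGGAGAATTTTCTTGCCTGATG
Ath_circ_FC2588: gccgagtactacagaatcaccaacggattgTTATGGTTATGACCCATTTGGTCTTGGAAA
Ath_circ_FC0587: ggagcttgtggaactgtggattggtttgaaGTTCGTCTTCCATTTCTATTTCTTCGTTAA
Ath_circ_FC1406: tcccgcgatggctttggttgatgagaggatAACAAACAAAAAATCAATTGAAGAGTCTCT
Ath_circ_FC0554: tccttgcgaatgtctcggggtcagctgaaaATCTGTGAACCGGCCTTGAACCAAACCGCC

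The 3 LHCA5 circRNAs (FC0664, FC4825 and FC0018) share their capitals, because they begin at the same base and differ in where they end. The LHCB5 pair (FC2587 and FC2588) shares its lower-case bases, because both end at the same base and begin at different exons.

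A circRNA was found for 20 of the 44 genes (45.5%, Wilson 95% interval 31.7 to 59.9%), while 11.7% of the 27444 annotated nuclear protein-coding genes had at least 1. Such intervals cover counting error only. More than 1 circRNA came from 9 of these 20 genes (45.0%), against 25.3% of the 3238 nuclear genes with any circRNA. No test of these or the later differences was run, since every condition had 1 library and the circRNAs of a gene share their source.

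The gene structure behind these counts was unlike that of most circRNA parent genes. Of the 44 genes, 12 have 1 annotated exon, 9 have 2 and 23 have 3 or more. A circRNA was listed for 6 of the 12 genes of 1 exon, against a background of 2.19%, and for 3 of the 9 genes of 2 exons, against 3.33%. Among the genes of 3 or more exons it was 11 of 23, against 16.6%. Accordingly 14 of the 35 circRNAs (40%) came from genes of 1 or 2 exons, compared with 7.71% of the other 4577 nuclear circRNAs with a parent gene in the reference.

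**Figure D1:**
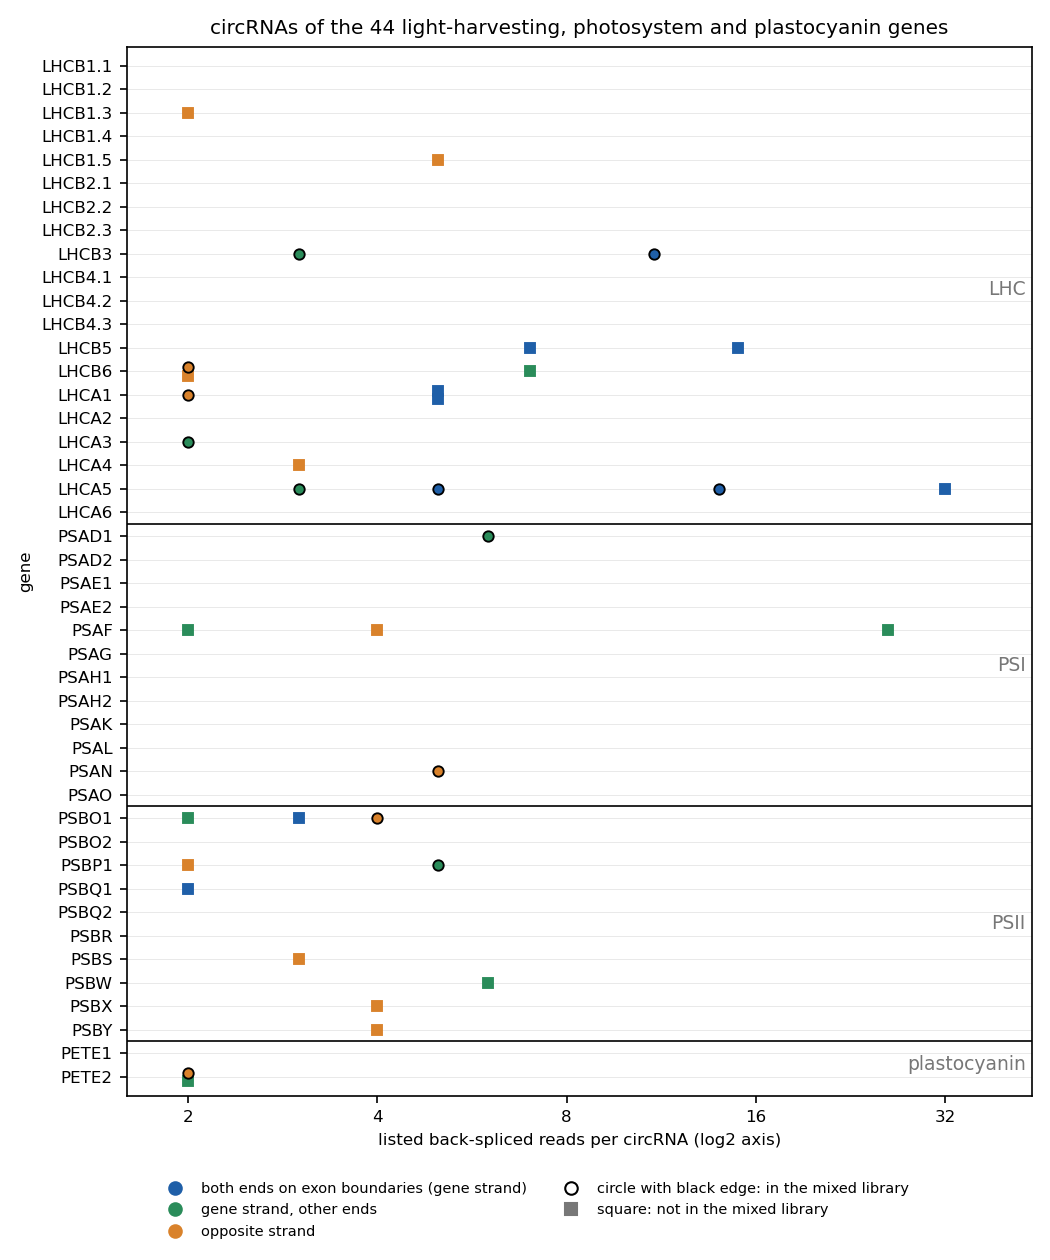
Back-spliced reads of each circRNA (log2 axis) for the 44 genes, by group. Colours give strand and exon boundaries, circles with a black edge mark the 13 circRNAs in the mixed library, and the rows without a point are the 24 genes with no circRNA. The highest points are LHCA5 at 32 reads and PSAF at 26 reads.

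By group, PSII had a circRNA for 7 of its 10 genes (70.0%, 39.7 to 89.2%), LHC for 9 of 20 (45.0%, 25.8 to 65.8%) and PSI for 3 of 12 (25%, 8.89 to 53.2%). These intervals overlap, and the order rests on circRNAs with few reads. At 5 or more reads a circRNA was left for 2 of the 10 PSII genes, 6 of the 20 LHC genes and 3 of the 12 PSI genes. Outside the mixed library it was 7 of 10, 7 of 20 and 1 of 12. The reads were ordered in another way, with 125 for the 18 LHC circRNAs, 43 for the 5 of PSI, 35 for the 10 of PSII and 4 for the 2 of plastocyanin. PSII thus had many genes with few reads each, and its highest circRNA had 6.

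The 35 circRNAs had a median of 4 reads (range 2 to 32), and the other nuclear circRNAs a median of 5 (2 to 413). The threshold of the list was 2 reads, and 11 of the 35 (31.4%) stood exactly at it, against 23.6% of the others. Another 5 (14.3%, 6.26 to 29.4%) had at least 10 reads, against 21.7%. The reads were unevenly spread, since the 3 highest circRNAs held 73 of the 207 reads (35.3%) and LHCA5 alone held 54 (26.1%).

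Their median genomic span was 236 bp (128 to 830 bp), against 467 bp for the others. In genes of 1 or 2 exons the medians were 227 and 226 bp, and in genes of 3 or more 289 and 492 bp. In the mixed library they were 195 and 177 bp, and outside it 287.5 and 549.5 bp. The longest was FC0664 of LHCA5, and the shortest was FC5385 of PSBO1, which lay on the opposite strand. The deposited type was exon for 33 and intron for 2, both in PSAF.

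The type called exon covers circRNAs that differ in where they end. Both ends fell exactly on annotated exon boundaries in 10 of the 35 (28.6%, 16.3 to 45.1%), against 62.7% of all 4612 nuclear circRNAs with a parent gene in the reference. These 10 came from LHCA5 (3), LHCA1 (2), LHCB5 (2), LHCB3 (1), PSBO1 (1) and PSBQ1 (1). All 10 lay on the strand of their gene, spanned whole annotated coding exons and left out the first and the last exon. The list gives only the ends of a circRNA. The exons named within one and their joined length are therefore read from the annotation, and whether introns between them were kept was not tested. They held 99 of the 207 reads (47.8%), and in the other nuclear circRNAs the like share of reads was 65.8%. The caller requires an AG before and a GT after each circRNA on its listed strand. The gene strand and the left-out outer exons of the 10 largely follow from this rule.

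The introns upstream of these 10 circRNAs spanned 72 to 372 bp, with a median of 88 bp. Those downstream spanned 64 to 261 bp, with a median of 85.5 bp. An intron shared by circRNAs of LHCA5, LHCB5 or LHCA1 was counted once for each of them. Without LHCA5 the medians were 98 and 86 bp, and those of the other nuclear circRNAs of this kind were 119 and 112 bp. The upstream introns of FC3977 (296 bp), FC2385 (313 bp) and FC2740 (372 bp) were longer than 119 bp. A circle of 1 exon made up 5 of the 10, and the annotated exons between the ends were a multiple of 3 bases long in 3.

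Of the remaining 25, 18 lay within an exon, 5 ran between 2 exons with at most 1 end on a boundary (FC5436 of LHCA5 alone had 1) and 2 lay in an intron. On the strand opposite to the gene lay 14 of the 35 (40%, 25.6 to 56.4%), against 13.3% of all nuclear circRNAs. None of the 14 ended on exon boundaries, nor did any of the 601 other nuclear circRNAs on the opposite strand. The same rule of the caller all but fixes this, so the boundary and strand shares are linked. None of the 14 had more than 5 reads.

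**Figure D2:**
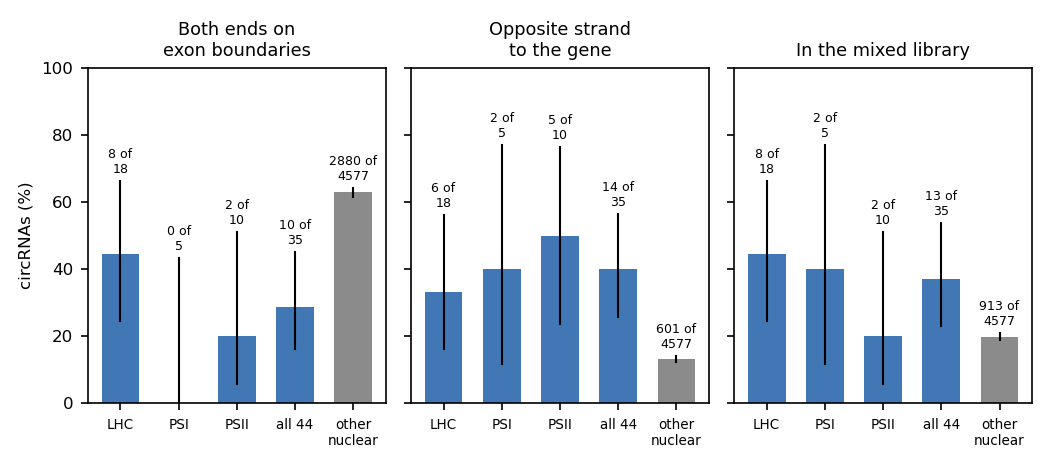
Share of circRNAs (%) with both ends on exon boundaries, on the strand opposite to the gene, and in the mixed library, for LHC, PSI, PSII, all 44 genes and the other nuclear circRNAs. Bars are shares, lines are Wilson 95% intervals and counts stand above. The boundary share was 28.6% for the 44 genes and 62.9% for the others, and the opposite-strand share was 40% and 13.1%.

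Both shares changed with the number of reads. Among circRNAs with 2 to 4 reads, 2 of 20 ended on boundaries at both ends (10%, 2.79 to 30.1%), against 58.5% of the other nuclear circRNAs, and 12 of 20 were on the opposite strand (60%, 38.7 to 78.1%), against 14.4%. Among those with 5 or more reads, 8 of 15 ended on boundaries (53.3%, 30.1 to 75.2%), against 67.2%, and 2 of 15 were on the opposite strand (13.3%, 3.74 to 37.9%), against 11.9%. The shares of the others lay outside the intervals of the 44 genes at 2 to 4 reads, and inside them at 5 or more. These intervals count circRNAs of a shared gene as independent. Of the 8 on boundaries at 5 or more reads, LHCA5 gave 3 and LHCB5 and LHCA1 gave 2 each. With 15 circRNAs such an interval cannot show that the difference is gone.

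**Figure D3:**
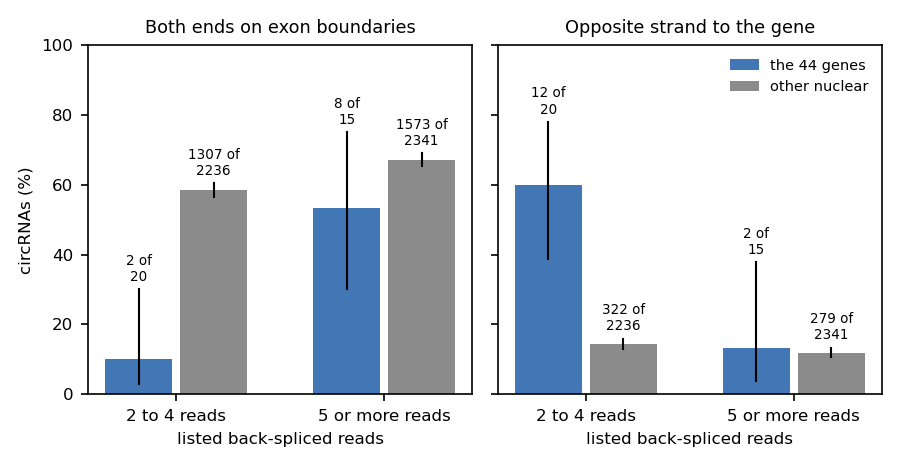
Share of circRNAs (%) with both ends on exon boundaries and on the strand opposite to the gene, at 2 to 4 and at 5 or more reads, for the 44 genes (left bars) and the other nuclear circRNAs (right bars), with Wilson 95% intervals. At 2 to 4 reads the opposite-strand share was 60% for the 44 genes and 14.4% for the others, and at 5 or more reads it was 13.3% and 11.9%.

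The number of exons moved with the same shares. In genes of 1 or 2 exons 0 of 14 member circRNAs and 0 of 353 others ended on boundaries at both ends, as such genes have no exon with an intron on each side. In genes of 3 or more exons it was 10 of 21 (47.6%, 28.3 to 67.6%), against 68.2%. The opposite strand was listed for 57.1% of the member circRNAs and 50.4% of the others in genes of 1 or 2 exons, and for 28.6% (13.8 to 50%) and 10% in genes of 3 or more. What part the gene structure has in the pooled difference was not tested.

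The listed strand needs a caution. Whether it was taken from the reads or from the splice motif is not given in the sources used here, and only 2 of the 14 opposite-strand circRNAs overlapped an annotated gene on the strand they were listed on (FC1487 of LHCB1.5 and FC5556 of LHCB6). An AG before the first base and a GT after the last base were found on the listed strand for all 4625 nuclear circRNAs with a parent gene, these 35 included, which the caller requires, so they carry no further evidence.

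The LHCA genes held the largest group of reads, with 71 reads in 9 circRNAs from 4 of 6 genes. LHCA5 (AT1G45474), a minor antenna protein of PSI, gave 4 circRNAs, all on its strand. FC0664 (chr1:17179610-17180439, + strand) had 32 reads and spanned exons 2 to 5, which by annotation hold 586 of the 771 coding bases (76.0%). Its downstream end is an exon end in 1 of the 2 annotated transcripts, and in the other the exon runs on to base 17180530. FC4825 had 14 reads and spanned exon 2 alone, and FC0018 had 5 reads and spanned exons 2 and 3.

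The fourth, FC5436, had 3 reads and ended with exon 3 like FC0018, but began 5 bases later. The bases around both starts are shown because each start has an AG, in capitals, directly before it.
FC0018 start: gttgtgttcttgaaataaAGtttagctgga
FC5436 start: gttcttgaaataaagtttAGctggagatta
FC0664 was not in the mixed library, and the 3 others were. Compared with all other nuclear circRNAs, 128 of the 4577 (2.80%) had at least the 32 reads of FC0664. The numbers differ in basis, since circRNAs of the mixed library, FC4825 included, carry the count of that library alone.

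LHCA1 (AT3G54890), LHCA3 (AT1G61520) and LHCA4 (AT3G47470), antenna proteins of PSI, had fewer reads, with 12, 2 and 3. In LHCA1, FC2384 spanned exon 3 and FC2385 exons 2 and 3 of the same transcript, with 5 reads each and a shared downstream end. Another annotated transcript has an intron inside that exon 3. FC5700 of LHCA1 had 2 reads on the opposite strand. FC5585 of LHCA3 lay inside an exon with 2 reads, and FC2285 of LHCA4 ran from exon 1 into exon 2 on the opposite strand with 3. LHCA2 and LHCA6 had no circRNA.

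**Figure D4:**
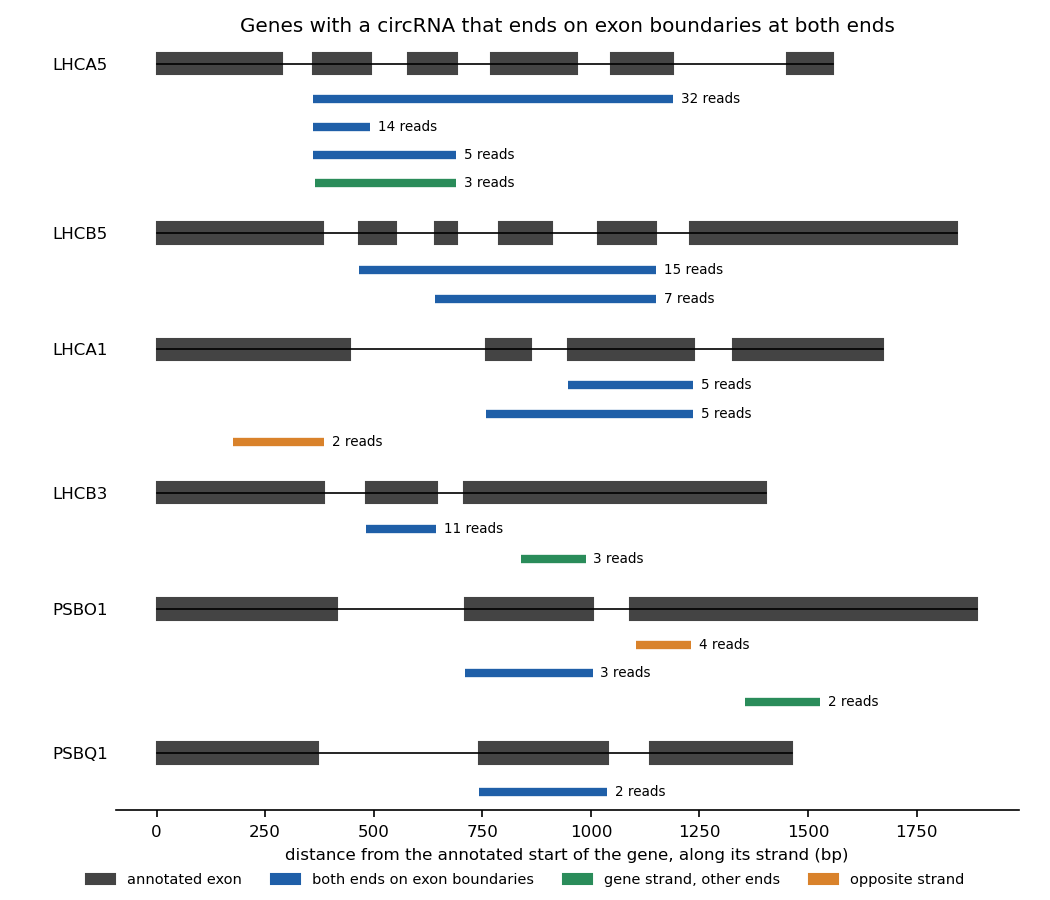
Exons (dark boxes) of the 6 genes with a circRNA on exon boundaries at both ends, with their circRNAs below as bars, along the distance from the annotated gene start in bp. Blue bars end on boundaries at both ends, and each bar carries its reads. In LHCA5 3 blue bars share their left end, and in LHCB5 and LHCA1 the 2 blue bars share their right end.

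Of the minor PSII antenna, LHCB5 (CP26, AT4G10340) and LHCB6 (CP24, AT1G15820) had circRNAs, and none was listed for LHCB4.1, LHCB4.2 or LHCB4.3 (CP29). FC2587 of LHCB5 (chr4:6408473-6409157, + strand) had 15 reads and spanned exons 2 to 5, which by annotation hold 392 of the 843 coding bases (46.5%). FC2588 had 7 reads and spanned exons 3 to 5. Neither was in the mixed library.

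FC2587 was among the circRNAs for which the study designed divergent primers, which face away from each other on the linear RNA. The study used such primers for qRT-PCR, and FC2587 was not among the circRNAs whose junctions it reported as sequenced. Both FC2587 primers match exon 2 exactly. On a circle of 392 bases, spliced as annotated, they frame a product of 385 bases.
FC2587 forward primer: agatcccagagtacttaaacggt
FC2587 reverse primer: atccaaaagaccatcaggcaag
LHCB6 has 2 exons, and its 3 circRNAs lay inside them. FC0391 had 7 reads on the strand of the gene. FC0390, which overlaps it, and FC5556 had 2 reads each on the opposite strand.

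The major PSII antenna had few circRNAs, with 21 reads in 4 circRNAs from 3 of 9 genes. LHCB3 (AT5G54270), a subunit of the antenna trimers, gave FC4872, which was its exon 2, with 11 reads, and FC5502 inside exon 3, with 3 reads. Both were in the mixed library. LHCB1.3 and LHCB1.5 each gave 1 circRNA on the opposite strand, with 2 and 5 reads. LHCB1.1, LHCB1.2, LHCB1.4, LHCB2.1, LHCB2.2 and LHCB2.3 gave none.

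The LHCB1 genes are close copies of each other, so 1 side of FC0554 is less certain in place than the others. The capitals of the FC0554 junction (LHCB1.3, chr1:10478324-10478483, - strand) occur once more in the genome without a differing base, at chr1:10472834-10472863 inside LHCB1.2 (AT1G29910). Its lower-case bases have 1 exact place, in LHCB1.3. No other circRNA of the 35 had 30 bases on a side of its junction with more than 1 exact place. FC1487 of LHCB1.5 (AT2G34420, chr2:14522608-14522790, + strand) has the same 7 bases at both ends, in capitals here, so the exact base of the junction cannot be read from the sequence.
FC1487 upstream copy: tagagaaaaaGAGGTTCgatttctata
FC1487 downstream copy: aatggtcggcGAGGTTCtccaaaggtc
A repeat of at least 5 bases at the ends was found in this circRNA alone among the 35 (2.86%), against 9.46% of the others. Shorter repeats, which leave the same doubt over fewer bases, were common. Only 14 of the 35 had no repeated base, and 28 had at most 2. FC1487 also overlaps 2 annotated genes of its listed strand, AT2G08665 and AT2G34410.

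In PSI, most reads came from the intron of PSAF (AT1G31330), whose protein helps plastocyanin dock. FC0587 (chr1:11215348-11215583, - strand) had 26 reads and FC0588 had 2. Both began at the first base of the 263 bp intron (chr1:11215321-11215583), and they ended 27 and 34 bases before its end. The same start at the first intron base was found in 149 of the 205 other intronic circRNAs (72.7%, 66.2 to 78.3%), which left a median of 27 bases (interquartile range 23 to 32). The caller's rule of an AG before and a GT after limits where such ends can be listed. The ends of FC0587 and FC0588 also share a repeat of 3 and 4 bases, so the exact base of these junctions cannot be read from the sequence. Of those 205, with a median of 6 reads, 11 had at least 26. FC0589 of PSAF lay in exon 1 on the opposite strand with 4 reads.

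PSAD1 (AT4G02770), a stromal subunit at the ferredoxin docking site, gave FC5073 inside its only exon, with 6 reads. PSAN (AT5G64040), a subunit on the lumen side, gave FC5186 on the opposite strand, with 5 reads. Both were in the mixed library. PSAD2, PSAE1, PSAE2, PSAG, PSAH1, PSAH2, PSAK, PSAL and PSAO had no circRNA.

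In PSII, the subunits that shield the water-splitting manganese cluster had 6 circRNAs, and where 2 copies of a gene were listed only 1 of them had any. PSBO1 (AT5G66570) gave FC3977, which was its exon 2, with 3 reads, FC3978 inside exon 3 with 2, and FC5385 in the same exon on the opposite strand with 4. PSBQ1 (AT4G21280) gave FC2740, its exon 2, with 2 reads, and PSBO2 and PSBQ2 gave none. PSBP1 (AT1G06680) gave FC5124 with 5 reads and, on the opposite strand, FC0216 with 2, which overlap each other in exon 1.

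PSBW (AT2G30570), a small PSII subunit, gave the highest of the group, FC1406 (chr2:13019474-13020110, - strand), with 6 reads. It ran from inside exon 1 to inside exon 2 on the strand of the gene. PSBS (AT1G44575), the sensor of excess light, PSBX (AT2G06520) and PSBY (AT1G67740) gave 1 circRNA each, all on the opposite strand, with 3, 4 and 4 reads. PSBR gave none. Of the plastocyanins, PETE2 (AT1G20340) gave 1 circRNA on each strand, FC0445 and FC5561, with 2 reads each, and PETE1 gave none.

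**Figure D5:**
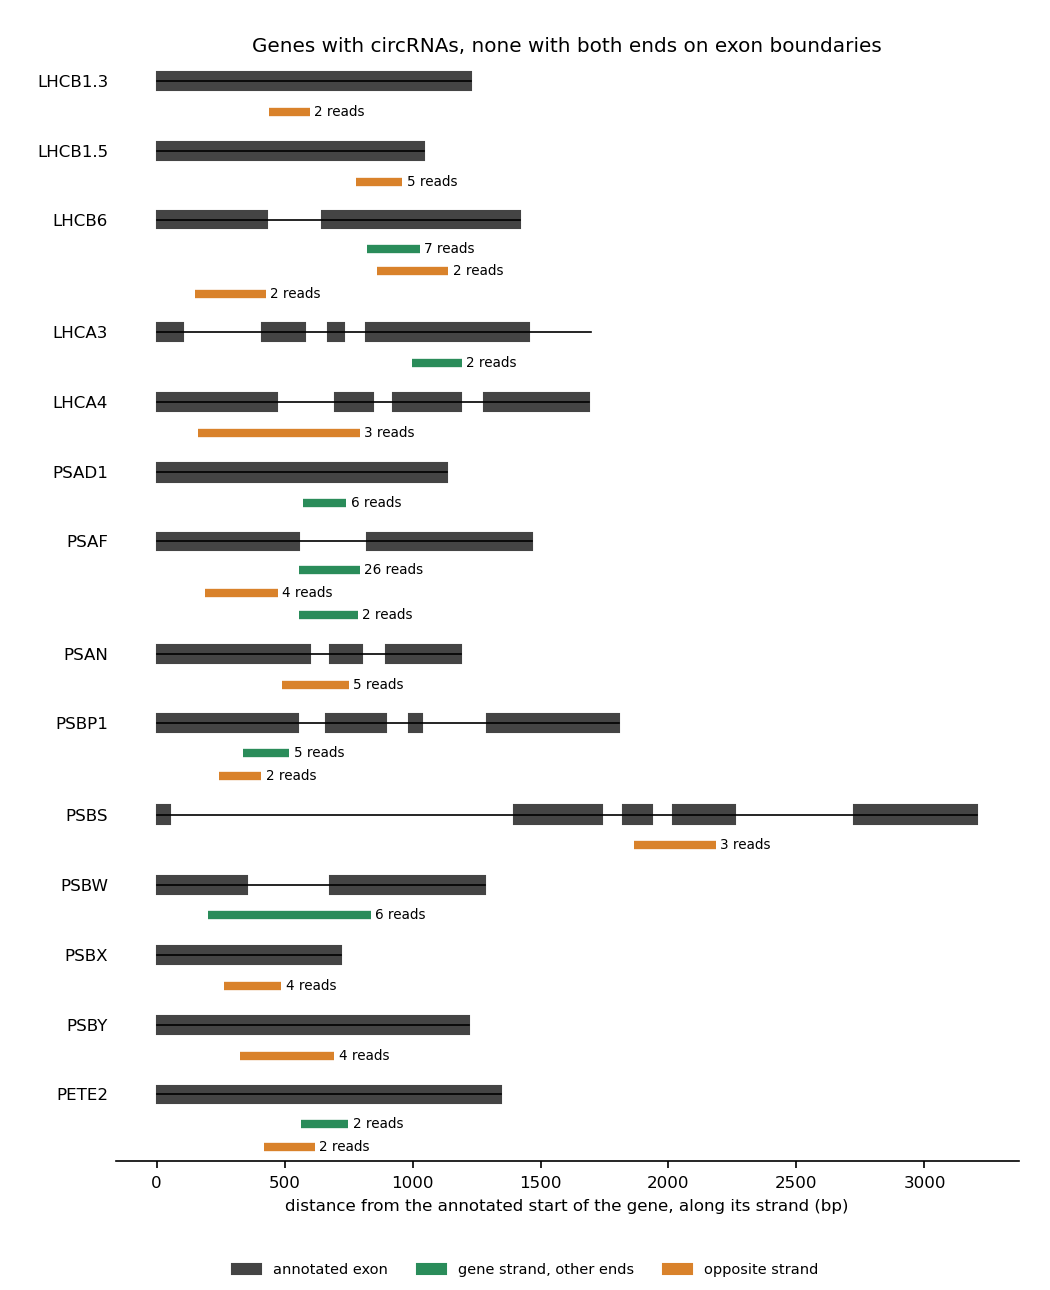
Exons (dark boxes) and circRNAs (bars with their reads) of the 14 genes without a circRNA on exon boundaries at both ends, along the distance from the annotated gene start in bp. Green bars lie on the strand of the gene and orange bars on the opposite strand. The bars with 26 and 2 reads in PSAF begin where its intron begins.

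The mixed library held 13 of the 35 circRNAs (37.1%, 23.2 to 53.7%), against 20.1% of all nuclear circRNAs. The direction changed with the number of exons. In genes of 1 or 2 exons it held 3 of 14 (21.4%, 7.57 to 47.6%), against 45.3% of the other nuclear circRNAs. In genes of 3 or more exons it held 10 of 21 (47.6%, 28.3 to 67.6%), against 17.8%. By group it was 8 of 18 for LHC, 2 of 5 for PSI, 2 of 10 for PSII and 1 of 2 for plastocyanin. These 13 had 64 reads, with a median of 4, and they were 3 of LHCA5, 2 of LHCB3 and 1 each of LHCA1, LHCA3, LHCB6, PSAD1, PSAN, PSBO1, PSBP1 and PETE2. The 22 circRNAs outside it also had a median of 4 reads, in libraries whose depth was not analysed here. The mixed library also differed in instrument and read length, which cannot be told apart from its plant material.

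The other shares had overlapping intervals inside and outside the mixed library. Both ends lay on exon boundaries in 3 of the 13 in the mixed library (23.1%, 8.18 to 50.3%) and in 7 of the 22 outside it (31.8%, 16.4 to 52.7%), compared with 46.4% and 67.0% of the other nuclear circRNAs. The opposite strand was listed for 5 of the 13 (38.5%, 17.7 to 64.5%) and 9 of the 22 (40.9%, 23.3 to 61.3%), compared with 23.0% and 10.7%. The labels name a strand-specific preparation for the 13 separate libraries, and the study's methods for all 14.

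The 60 bases across each junction were searched for in the genome and the annotated transcripts, since a linear copy would give the same reads. At up to 3 differing bases, 0 of the 35 had such a copy, which allows a share of up to 8.57% (3 counts of 35), and 23 of the 4577 others (0.503%) had one.

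Further nuclear genes of the light reactions were counted in the same way. Of 30 such genes, 11 (36.7%, 21.9 to 54.5%) had a circRNA, against 45.5% of the 44 genes and 11.7% of all nuclear protein-coding genes. These 11 genes gave 17 circRNAs with 219 reads, and 5 of the 17 were in the mixed library. Both ends lay on boundaries in 5 (29.4%), near the 28.6% of the 44 genes and against 62.7% of all nuclear circRNAs. On the opposite strand lay 4 (23.5%), against 40% and 13.3%. STN8, the kinase of PSII core proteins, held 120 of these reads in 3 circRNAs, and 87 of them were in FC3102. FD1 and FD2, the leaf ferredoxins, had 15 and 7 reads, and PETC, the Rieske protein of the cytochrome complex, had 8.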

How the data were processed

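The authors depleted ribosomal RNA, digested linear RNA with RNase R, cleaned the reads (NGS QC Toolkit), mapped them to TAIR10 by TopHat2 and Bowtie2 (2.0.5, with CASAVA 1.8 in the submitters' processing notes) and called back-spliced junctions with find_circ at no fewer than 2 reads. Parent genes were assigned with bedtools. The score that the authors list per circRNA over all samples is named a mean in its header but is whole, and it was taken as a number of reads. For the mixed library the deposited value is a count of back-spliced reads, and a second deposited score, scaled to depth, was not used. The depth behind each separate library was not analysed here.

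Deposited starts count from 0, so 1 was added. Exons, strands and sequences came from the NCBI annotation and sequence of TAIR10.1, whose nuclear chromosomes are those of TAIR10. An end was on a boundary at a tolerance of 0 bp in any annotated transcript of the parent gene. Junctions of 60 bases were searched with blastn 2.17.0. The 13 nuclear circRNAs whose listed gene was not in the reference, and mitochondrial ones, were left out. Python 3.11.15, pandas 2.3.3 and statsmodels 0.14.6 were used, and the boundary and junction steps were tested on simulated circRNAs. Named were all 44 genes and, of single circRNAs, the 3 with the most reads in each group, the longest and shortest, those in the mixed library, those matching another gene and FC2587. Others named here were chosen after their values were seen. Read minimums of 3 and 5, the exon type alone, members by position, circRNAs outside the mixed library, weighting by reads, tolerances of 2 and 5 bp, spliced length, geometric means and other match limits were tried as alternatives. The members and lists were chosen with earlier results of these data known. No test was run across features.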

Additional observations from a re-analysis of the deposited data

How the results depend on the processing

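No paired analysis was possible because each group had 1 sample, and no library could be left out because the list of all samples does not split reads by library. A minimum of 5 reads changed the most values. It left 15 circRNAs of 11 genes in place of 35 of 20, raised the median to 6 reads, the share on exon boundaries to 53.3% and the share on the strand of the gene to 86.7% (60% at 2 reads). Weighting by reads gave 47.8% on boundaries and 78.7% on the strand of the gene. Outside the mixed library there were 22 circRNAs. In genes of 3 or more exons, an alternative chosen after seeing the data, 47.6% were on boundaries. The other 46 values over all 44 genes stayed within the counting interval of the value reported or within 1.5 times its count, among them 22.6% on boundaries, 54.8% on the strand of the gene and 32.3% in the mixed library without LHCA5, which was also chosen after seeing the data. By group, 15 of 117 values moved. At 5 or more reads PSII had 2 circRNAs of 2 genes in place of 10 of 7, none on boundaries and all on the strand of the gene, LHC 10 circRNAs with 80% on boundaries and 90% on that strand (84.6% at 3 or more reads), and PSI 3 circRNAs. Outside the mixed library PSI had 1 gene in place of 3. Positions gave the same 35 circRNAs. Circles with fewer than 2 reads were not in the list, so the 24 genes without a circRNA are not shown to lack them. Other reasons for their absence, such as reads that match close copies like the LHCB1 genes, were not tested.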
